A study of Mus musculus with 14 samples.

Results

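The genes described here are 9 transcription factors of T helper 2 (Th2) cells: Gata3, Nfil3, Batf, Batf3, Irf4, Maf, Bhlhe40, Bhlhe41 and Pparg. They were chosen by name and read from the count tables by their Ensembl identifiers, which makes 9 of the 22598 genes in the tables. All 9 passed the filter on low counts, as did 11591 genes in all. The cells were CD4+ TCRb+ T cells of C57BL/6J mice, sorted from splenocytes by FACS and grown in Th2 culture, and their total RNA was sequenced in paired ends. There were 4 groups, which differ in genotype and in days of culture. Cells without Ago1, Ago3 and Ago4 (Ago134 knockout, "knockout" below) gave 3 libraries at day 14, and wild-type cells gave 3 libraries at day 14. At day 7 there were 4 knockout and 4 wild-type libraries. The series text names littermate wild-type mice and gives the later time in a second way as well; the sample labels, which are followed here, say 14 days. Naive cells of the same study were not analysed here. The labels name no promoter or Cre that drives the deletion, and neither ages nor culture conditions, and they do not say whether the libraries of a group came from different mice. The p-values below therefore measure the spread between libraries, part of which may be technical.

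Depth ran from 23326248 to 35803197 counted reads per library. Ago1, one of the deleted genes, checks the genotype label: it had 0, 0 and 2 reads in knockout libraries of day 14, against 100, 96 and 67 reads in wild type. At day 7 it had 0 reads in every knockout library, against 128 to 141 reads in wild type. The T cell markers Cd3e, Cd3d, Cd3g, Cd4, Cd5 and Lck were all detected in each group and together made up 4215 to 7179 CPM (reads relative to scaled library totals). Of the Th2 cytokines, Il4 averaged 9.70 CPM in knockout cells of day 14, against 8.02 CPM in wild type, whereas Il13 had at most 5 reads in any library. Some libraries stood apart from the rest of their group: the root-mean-square log2 difference over all tested genes was 1.22 for wild-type day 14 library 3 and 1.04 for wild-type day 14 library 2. It was 0.735 for knockout day 7 library 4, whose group mates had 0.392 to 0.574. For the 9 genes, differences that lean on these libraries are also given without them.

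Th2 cells arise when interleukin 4 acts on naive CD4+ T cells through STAT6 and raises GATA3, the factor that defines the lineage and opens the Il4, Il5 and Il13 locus. The other factors work around it. BATF and BATF3 are short basic leucine zipper proteins that pair with JUN proteins and, together with IRF4, occupy composite sites in activated T cells. MAF activates Il4, NFIL3 tunes Th2 cytokine genes, and the paired repressors BHLHE40 and BHLHE41 bind E-boxes. PPARG is a lipid-sensing nuclear receptor that Th2 cells use for their fatty acid metabolism and cytokine output.

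Promoters are shown for Nfil3, whose level differed between the genotypes, for the paralogs Batf3 and Batf, whose ratio within libraries did not overlap between the genotypes on either day, and for Bhlhe41. They differ in base composition and in the presence of an E-box, the kind of site that BHLHE40 and BHLHE41 bind. Each sequence is the RefSeq promoter window on GRCm38.p6, from 250 bases before to 50 bases after the start of transcription, read on the gene's own strand. The windows are chr13:52980990-52981289 on the minus strand for Nfil3, chr1:191098164-191098463 on the plus strand for Batf3, chr12:85686470-85686769 on the plus strand for Batf and chr6:145865371-145865670 on the minus strand for Bhlhe41. Capitals mark the E-box CACGTG.
Nfil3: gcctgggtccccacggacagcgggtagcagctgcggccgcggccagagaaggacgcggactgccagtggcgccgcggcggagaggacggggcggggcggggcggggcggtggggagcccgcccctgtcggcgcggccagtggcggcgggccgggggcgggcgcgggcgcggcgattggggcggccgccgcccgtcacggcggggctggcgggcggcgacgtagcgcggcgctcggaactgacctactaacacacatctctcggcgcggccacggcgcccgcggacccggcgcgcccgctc
Batf3: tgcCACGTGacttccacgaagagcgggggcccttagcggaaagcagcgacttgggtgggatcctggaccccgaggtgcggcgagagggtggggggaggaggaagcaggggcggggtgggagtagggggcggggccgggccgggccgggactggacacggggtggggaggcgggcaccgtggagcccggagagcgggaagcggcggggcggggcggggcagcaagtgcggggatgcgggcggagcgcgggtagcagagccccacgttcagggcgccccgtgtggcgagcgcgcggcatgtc
Batf: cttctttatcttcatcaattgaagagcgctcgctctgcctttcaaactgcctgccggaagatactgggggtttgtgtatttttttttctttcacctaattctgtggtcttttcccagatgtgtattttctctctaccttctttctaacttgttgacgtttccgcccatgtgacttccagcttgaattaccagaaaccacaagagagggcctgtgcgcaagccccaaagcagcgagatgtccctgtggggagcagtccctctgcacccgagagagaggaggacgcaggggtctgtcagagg
Bhlhe41: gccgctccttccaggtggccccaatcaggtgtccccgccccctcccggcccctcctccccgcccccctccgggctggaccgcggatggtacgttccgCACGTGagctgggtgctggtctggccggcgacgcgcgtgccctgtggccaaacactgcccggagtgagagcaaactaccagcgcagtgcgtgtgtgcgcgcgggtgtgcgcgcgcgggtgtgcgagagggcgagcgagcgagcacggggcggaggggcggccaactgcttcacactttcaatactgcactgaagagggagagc
G and C made up 81.7% of the Nfil3 window, 75.7% of the Batf3 window, 70.7% of the Bhlhe41 window and 49.7% of the Batf window, against a median of 52.7% over 32851 promoters. The table holds 9 promoters for 7 of the 9 genes, 3 of them for Pparg. The E-box occurred in 2 of these 9, those of Batf3 and Bhlhe41, and in 7.15% of all promoters. Searched on both strands, none of the 9 held the AP-1 site TGANTCA (7.81% of all promoters), the STAT6 site TTCNNNNGAA (6.95%), the GATA site GATAAG (7.44%) or the D-box TTATGTAA bound by NFIL3 (0.938%). The composite GAAATGANTCA, which contains the AP-1 site, was present in 0.125% of all promoters and in none of these. Absence says only that these letters are not in these windows.

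Per length, the 9 genes spanned a wide range of levels in each group, and the order was led by Gata3 in 3 groups and by Nfil3 in wild type at day 14. The authors' RPKM scale divides reads by coding length and by a library total. The counted reads made up 38.9% to 44.9% of the total that the deposited values imply, depending on the library. On this scale wild-type day 14 cells had 452 ± 54.5 RPKM of Nfil3 (SD, n = 3), with 76 of 13948 detected genes above it. Batf (149) and Gata3 (144 RPKM) followed with overlapping library ranges, then Bhlhe40 (57.8) and Pparg (23.5 RPKM), which also overlapped. Irf4 (7.11) and Batf3 (4.70 RPKM) could not be separated from each other either, and Maf (0.814) and Bhlhe41 (0.132 RPKM) closed the order. Knockout day 14 cells had 173 ± 27.4 RPKM of Gata3, 141 ± 41.1 of Nfil3, 97.2 of Batf and 76.7 RPKM of Bhlhe40, and each of these overlapped with the next. At day 7 the order from Gata3 through Nfil3, Batf, Bhlhe40 and Pparg was the same in both genotypes, with 164 RPKM of Gata3 in knockout and in wild-type cells. Batf3 ranked above Irf4 in knockout cells at day 7 (1.71 and 1.00 RPKM, overlapping ranges) and below it in wild-type cells (0.426 and 1.06 RPKM, ranges apart).

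**Figure D1:**
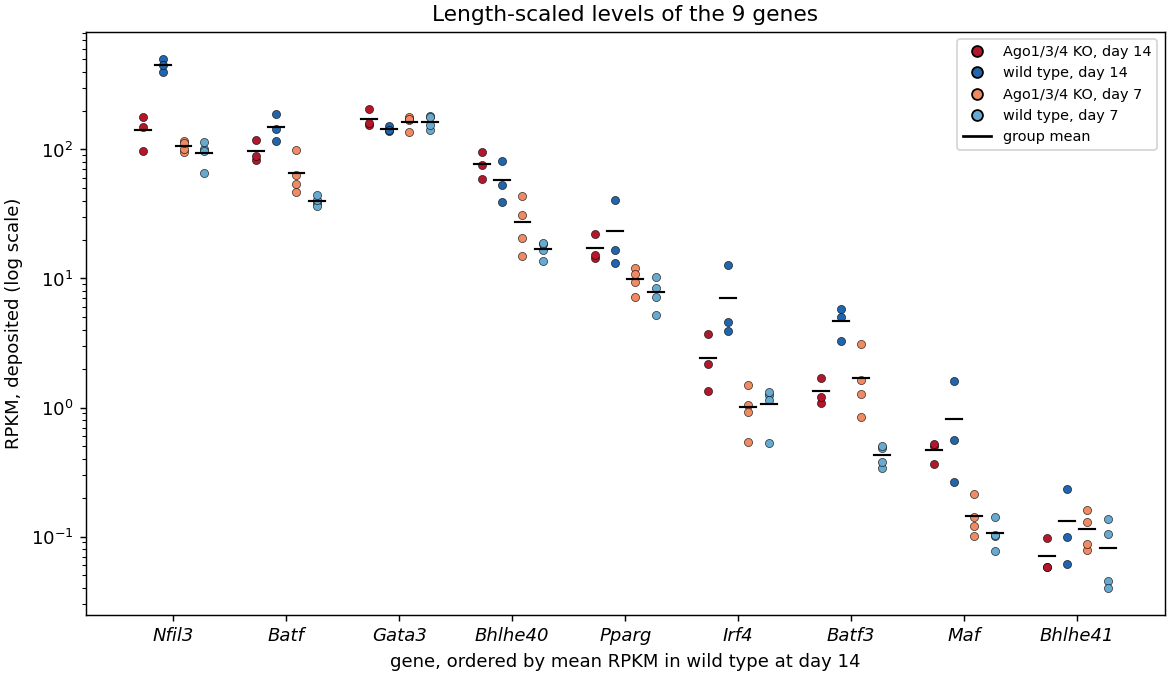
Levels of the 9 genes per coding length in the 4 groups, as the authors' RPKM on a log axis, with 1 point per library and a bar at the group mean. Nfil3 leads in wild-type day 14 cells at a mean of 452 RPKM, while the group means of Gata3 stay between 144 and 173 RPKM in all 4 groups.

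With time in wild-type culture most of these factors rose. Maf, Nfil3, Irf4, Bhlhe40, Pparg, Batf and Batf3 were higher at day 14 than at day 7, by 1.46 to 3.34 on the log2 scale, whereas Gata3 and Bhlhe41 did not pass the test. That is 7 of 9 called higher at an adjusted p below 0.05 with edgeR's quasi-likelihood test, where 13.2% of all tested genes were called higher and 20.5% in either direction. The median log2 difference of the 9 was 1.79, against 0.00 over all tested genes. In knockout culture only Bhlhe40 was called between the days. The background there was 15.5% called in either direction and 10.5% called higher, and the median of the 9 was 0.41 against 0.02. The libraries of day 14 and day 7 did not overlap for 3 genes in knockout cells (Maf, Bhlhe40 and Pparg, all higher, background 13.6%) and for 7 genes in wild-type cells (background 17.2%). DESeq2 called 2 genes between the days in knockout cells (Maf and Bhlhe40, where it called 19.7% of all genes) and limma-voom 3 (Maf, Irf4 and Bhlhe40, background 23.3%).

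Markers of other cell types also moved with time. In wild-type cells, summed markers of mast cells and basophils were at 3.81 to 8.03 CPM at day 14, against 34.2 to 69.6 CPM at day 7, and in knockout cells at 23.4 to 132 CPM at day 14, against 52.4 to 86.7 CPM at day 7, most of it Cpa3. Th1 markers were at 50.96 to 86.6 CPM in knockout cells of day 14, against 2.17 to 7.01 CPM at day 7, and at 25.8 to 115 CPM in wild-type cells of day 14, against 3.54 to 9.69 CPM at day 7. Nearly all of this was the chemokine receptor gene Cxcr3, while Tbx21, the gene that defines Th1 cells, stayed at or below 1.08 CPM in every library and Ifng had at most 0.0418 CPM. Markers of regulatory T cells were at 169 to 292 CPM in knockout cells of day 14, against 53.7 to 109.7 CPM at day 7, and at 103.9 to 412 CPM in wild-type cells of day 14, against 43.2 to 47.8 CPM at day 7. The receptor genes Il2ra and Ctla4 supplied most of that sum, and Foxp3, which defines these cells, had at most 1.90 CPM in any library. Summed markers of natural killer cells were higher at day 14 without overlap in both genotypes, with Ncr1 at 0 reads throughout. In wild-type cells the sum was 22.8 to 42.6 CPM, against 8.40 to 10.6 CPM at day 7. Eomes supplied most of it at day 14, at 22.4 to 42.0 CPM in wild-type and 10.8 to 40.4 CPM in knockout cells. Klrd1 went the other way, at 0.433 to 0.855 CPM in wild-type cells of day 14, against 3.70 to 5.43 CPM at day 7. In knockout cells Klrd1 was at 0.231 to 4.82 CPM at day 14, against 6.22 to 13.3 CPM at day 7. Summed myeloid and dendritic markers, whose values are given with Batf3, were also higher at day 14 without overlap in both genotypes. Most of the day 14 sum was Adgre1, at 12.7 to 24.0 CPM in knockout and 6.21 to 24.0 CPM in wild-type cells. Adgre1 had at most 2.01 CPM in any library of day 7, and Cd68 was also higher at day 14. Mgl2 went the other way, lower at day 14 without overlap in both genotypes. Summed B cell and adipocyte markers were lower at day 14. Markers of type 2 innate lymphoid cells are shared with Th2 cells. Their sum was 60.7 to 135 CPM in knockout cells of day 14, against 15.2 to 32.9 CPM at day 7. In wild-type cells the days overlapped, at 30.0 to 177 CPM at day 14, against 21.2 to 45.1 CPM at day 7. The part of these markers in the rises of the 9 genes was not tested.

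Between genotypes, Nfil3 was lower in knockout than in wild-type cells at day 14, and it was the 1 gene of the 9 called there, where 1.42% of all tested genes were called and 0.578% were called lower. The median of the 9 was -0.81, with 7 of 9 values below 0, against 0.01 over all genes. The libraries of the genotypes did not overlap for Nfil3, Irf4 and Batf3, all lower in knockout cells, where 5.25% of all tested genes were lower without overlap. DESeq2 called Nfil3, Irf4 and Batf3 at day 14 (8.57% of all genes called) and limma-voom Nfil3 and Batf3 (16.7%), all lower, and edgeR gave 3 of the 9 an unadjusted p below 0.05 (background 21.7%). At day 7 none of the 9 was called, at a background of 0.0949%. Batf and Batf3 were higher in knockout cells without overlap (background 9.27%), and the median of the 9 was 0.47 against -0.01. Beside the count of 0 at day 7, edgeR gave 3 genes an unadjusted p below 0.05 (Bhlhe40, Batf and Batf3, background 23.4%). DESeq2 called Batf3, where it called 4.04% of all genes, and limma-voom called Pparg, Batf and Batf3, a share of the 9 below the 43.5% of all genes that it called. The change with time differed between the genotypes for Batf3, called by edgeR's interaction term at a background of 0.0863% of genes (0.0259% called lower). DESeq2 and limma-voom called Nfil3 and Batf3 there, at backgrounds of 1.41% and 4.06%. All knockout libraries of day 14 belong to 1 lane set (libraries whose tables carry consecutive lane numbers) and all of day 7 to the other. With a term for the lane set the Batf3 interaction was -4.09 and was not called (edgeR adjusted p = 0.123). The genotype and time comparisons share libraries, so they are not independent of each other.

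**Figure D2:**
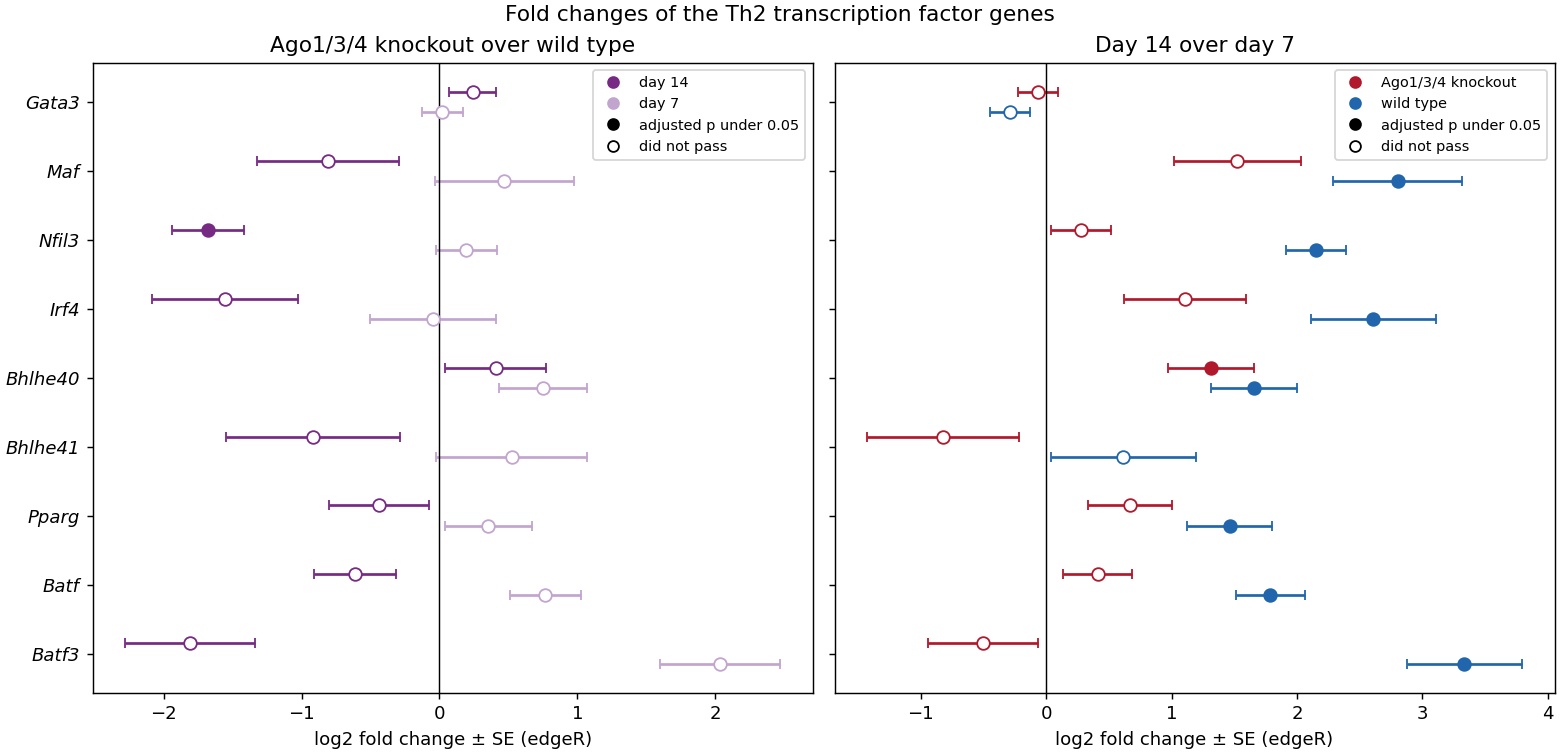
Log2 differences of the 9 genes from the edgeR fit over 14 libraries, knockout over wild type at each day on the left and day 14 over day 7 in each genotype on the right. Bars are standard errors and filled points have an adjusted p below 0.05. In wild-type cells 7 genes are called higher at day 14.

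Gata3 encodes the lineage-defining zinc finger factor and lies on the minus strand of chromosome 2 (GRCm38, chr2:9857078-9890034, ENSMUSG00000015619). It had 437, 599.6 and 522 CPM in knockout libraries of day 14, against 431, 476 and 411 CPM in wild-type libraries. At day 7 it had 561, 564, 568 and 484 CPM in knockout libraries, against 453, 498, 603 and 591 CPM in wild type. The groups overlapped in each comparison of genotypes or of days, and knockout day 7 library 4 was the lowest of its group. Knockout libraries of day 7 all lay above wild-type libraries of day 14, a pair that differs in both genotype and day. The log2 difference between knockout and wild type was 0.24 ± 0.17 (SE, edgeR adjusted p = 0.419) at day 14 and 0.02 ± 0.15 (adjusted p = 0.947) at day 7. The 95% intervals ran from -0.12 to 0.61 and from -0.29 to 0.34. Between day 14 and day 7 it moved by -0.07 ± 0.16 in knockout and -0.29 ± 0.16 in wild-type cells (edgeR adjusted p = 0.848 and 0.234). After a correction for GC content and coding length the wild-type difference was -0.68, with an adjusted p of 0.00300. The annotation places 2 coding genes, 4930412O13Rik with at most 26 reads in any library and 9230102O04Rik with at most 8, and the antisense gene Gm13256 over the Gata3 locus.

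Nfil3, on the minus strand of chromosome 13 (chr13:52967209-52981073, ENSMUSG00000056749), encodes a basic leucine zipper repressor that interleukin 4 induces and that tunes cytokine genes in Th2 cells. At day 14 it had 288, 453 and 602 CPM in knockout libraries, against 1289.8, 1635 and 1379 CPM in wild-type libraries. At day 7 the knockout libraries had 330.3, 384, 348 and 417 CPM, against 218, 334, 401 and 339 CPM in wild type. The wild-type libraries of day 14 thus stood above all 11 others, while the knockout libraries of day 14 overlapped with both groups of day 7. The genotypes differed by -1.68 ± 0.26 on the log2 scale at day 14 (95% interval -2.24 to -1.12, edgeR adjusted p = 0.00823) and by 0.19 ± 0.22 at day 7 (adjusted p = 0.613). In wild-type culture Nfil3 rose by 2.15 ± 0.24 between the days (edgeR adjusted p = 3.95e-05), beside 0.28 ± 0.24 in knockout culture (adjusted p = 0.521). The difference between these changes was -1.87 ± 0.34, with an edgeR adjusted p of 0.0667. It was called without wild-type day 14 library 3 (edgeR adjusted p = 0.0165), by DESeq2 (0.000177) and by limma-voom (0.0123). No other fit without a single library called it (edgeR adjusted p up to 0.144), nor did the fit with a term for the lane set. Of the 25 alternatives run, 9 called it. The genotype difference at day 14 was called without any single library, at adjusted p-values of 0.00282 to 0.0333, but a fit of the 6 day 14 libraries alone, which called 0 genes in all, gave an adjusted p of 0.183 with a difference of -1.80. Among the 5 day 14 libraries of 1 lane set, the knockout mean was 448 CPM and the wild-type mean 1334 CPM, a log2 ratio of -1.57. In bulk RNA a smaller share of cells that express a gene and less of its RNA per cell cannot be told apart.

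Batf, on the plus strand of chromosome 12 (chr12:85686669-85709087, ENSMUSG00000034266), encodes a leucine zipper protein that T helper cells need to respond to their polarizing cytokines. Its level was 67.2, 74.4 and 109.7 CPM in knockout libraries of day 14, against 103, 127 and 154 CPM in wild type. On day 7 its level was 51.1, 41.6, 59.5 and 100.1 CPM in knockout libraries, against 34.9, 33.3, 38.5 and 41.5 CPM in wild type. At day 14 only the highest knockout library reached into the wild-type range, while at day 7 the lowest knockout library lay just above the highest wild-type library, at 41.6 against 41.5 CPM. The log2 difference was -0.61 ± 0.30 at day 14 (edgeR adjusted p = 0.247) and 0.77 ± 0.26 at day 7 (adjusted p = 0.154). Without knockout day 7 library 4, the highest of its group, the difference at day 7 was 0.47 (adjusted p = 0.485), and after the GC and length correction it was 0.24. Batf rose with time in wild-type cells by 1.79 ± 0.28 (edgeR adjusted p = 0.000472), beside 0.41 ± 0.28 in knockout cells (adjusted p = 0.392), which was 0.70 without knockout day 7 library 4 (adjusted p = 0.0619). The interaction was -1.38 ± 0.40, with an edgeR adjusted p of 0.254.

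Batf3, on the plus strand of chromosome 1 (chr1:191097847-191108945, ENSMUSG00000026630), is the close relative of Batf and is best known for its role in cross-presenting dendritic cells. It was the gene of the 9 whose genotype difference changed most with time. At day 14 it had 0.827, 0.956 and 1.48 CPM in knockout libraries (28, 29 and 49 reads), against 4.20, 2.74 and 4.51 CPM in wild type (113, 82 and 146 reads). At day 7 it had 1.46, 0.709, 1.13 and 2.92 CPM in knockout libraries (34, 21, 36 and 66 reads), against 0.418, 0.293, 0.447 and 0.334 CPM in wild type (15, 9, 14 and 8 reads). Knockout libraries were thus all below wild type at day 14 and all above it at day 7. The log2 difference was -1.81 ± 0.47 at day 14 (edgeR adjusted p = 0.0657) and 2.03 ± 0.43 at day 7 (adjusted p = 0.154), neither of them called by edgeR. DESeq2 called both, at adjusted p-values of 0.00600 for day 14 and 0.00342 for day 7, and so did limma-voom, at 0.0286 for day 14 and 0.00153 for day 7. The difference between the 2 was -3.84 ± 0.64 (95% interval -5.21 to -2.47, edgeR adjusted p = 0.0372). Batf3 rose with time in wild-type cells by 3.34 ± 0.46 (edgeR adjusted p = 0.000191) and had a log2 difference of -0.51 ± 0.44 in knockout cells (adjusted p = 0.527), or -0.037 without knockout day 7 library 4. The interaction kept its size without each library in turn, between -4.13 and -3.35, but its adjusted p was above 0.05 in 11 of 14 such fits, with a range of 0.0119 to 0.121. The genotype difference at day 14 was called by edgeR without wild-type day 14 library 3 (-1.67, adjusted p = 0.0311) and without knockout day 7 library 4 (adjusted p = 0.0332). Without the second of these libraries the difference at day 7 was 1.56, with an edgeR adjusted p of 0.466.

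Summed markers of myeloid and dendritic cells moved with Batf and Batf3 at day 7, at 8.14 to 13.8 CPM in knockout libraries, against 2.12 to 4.26 CPM in wild type. Of the 10 markers, Itgax, Flt3, Xcr1, Clec9a and Cd209a, which include those of the dendritic cells that depend on BATF3, had 0 reads in every library of the series. Mgl2, a lectin gene, supplied most of the knockout sum with 5.95 to 7.74 CPM, against 0.947 to 1.84 CPM in wild type. At day 14 the same sum was 17.1 to 27.9 CPM in knockout libraries, against 7.51 to 29.1 CPM in wild type, while Batf3 was lower in knockout cells. Mgl2 was higher in knockout libraries at day 14 as well, at 1.19 to 2.44 CPM, against 0.149 to 0.525 CPM in wild type. Other summed markers were also higher in knockout libraries at day 7 without overlap. CD8 T cell markers were at 10.5 to 21.0 CPM, against 6.67 to 10.2 CPM in wild type, most of it Cd8b1. Regulatory T cell markers were at 53.7 to 109.7 CPM, against 43.2 to 47.8 CPM. The T cell markers were at 5065 to 7179 CPM, against 4215 to 4859 CPM. CD8 T cell markers were apart at day 14 too, at 11.4 to 20.6 CPM in knockout against 6.32 to 7.92 CPM in wild type. The part of any of these markers in the Batf and Batf3 values was not tested. Mast cell and basophil markers moved the other way from Nfil3 at day 14, at 23.4 to 132 CPM in knockout against 3.81 to 8.03 CPM in wild type, most of it Cpa3, with Ms4a2, Mcpt8 and Prss34 at 0 reads in both; their part was not tested.

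Irf4, on the plus strand of chromosome 13 (chr13:30749226-30766976, ENSMUSG00000021356), encodes the interferon regulatory factor that follows T cell receptor signal strength and binds with BATF and JUN. It had 3.90, 11.01 and 7.18 CPM in knockout libraries of day 14, against 14.6, 12.3 and 37.8 CPM in wild type. The values of day 7 were 3.53, 2.97, 1.82 and 5.40 CPM in knockout libraries, against 1.73, 4.10, 4.44 and 3.89 CPM in wild type. The genotypes were apart at day 14, though only narrowly, and fully overlapped at day 7. The log2 difference was -1.55 ± 0.53 at day 14 (edgeR adjusted p = 0.129) and -0.05 ± 0.46 at day 7 (adjusted p = 0.961). Wild-type day 14 library 3 held much of the first, which was -0.87 without it (adjusted p = 0.212). Irf4 rose with time in wild-type cells by 2.61 ± 0.50 (edgeR adjusted p = 0.00202), and by 1.93 without that library (adjusted p = 0.00774). In knockout cells the log2 difference was 1.11 ± 0.49 (edgeR adjusted p = 0.158), and the interaction was -1.50 ± 0.70 (adjusted p = 0.623), or -0.82 without wild-type day 14 library 3. DESeq2 called the genotype difference of day 14 (adjusted p = 0.0416) and limma-voom did not (0.204).

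Maf, on the minus strand of chromosome 8 (chr8:115682942-115707794, ENSMUSG00000055435), encodes the leucine zipper activator of Il4 and Il10. It was a low gene throughout. At day 14 it had 1.24, 1.32 and 1.03 CPM in knockout libraries (42, 40 and 34 reads), against 0.706, 1.50 and 4.05 CPM in wild type (19, 45 and 131 reads). At day 7 it had 0.344, 0.574, 0.407 and 0.310 CPM in knockout libraries, against 0.278, 0.390, 0.223 and 0.293 CPM in wild type. Every day 14 library was above every day 7 library, and the knockout values of day 14 lay inside the wild-type range. The genotypes differed by -0.81 ± 0.51 at day 14 (edgeR adjusted p = 0.373), a value that turned to 0.11 without wild-type library 3, and by 0.47 ± 0.51 at day 7 (adjusted p = 0.590). With time Maf rose in wild-type cells by 2.80 ± 0.51 (edgeR adjusted p = 0.00145), or by 1.89 without that library (adjusted p = 0.00585). In knockout cells the log2 difference was 1.53 ± 0.50 at an edgeR adjusted p of 0.0550, just short of the threshold. It was called by edgeR without wild-type day 14 library 1 (adjusted p = 0.0230) or library 3 (0.01200), by DESeq2 (0.0372) and by limma-voom (0.0200). A fit of the compared libraries alone also called it (edgeR adjusted p = 0.0312). Of the 26 alternatives run, 5 called it, and the edgeR adjusted p reached 0.394. The fit with a term for the lane set did not call it, and day and lane set cannot be told apart within knockout cells. The interaction was -1.28 ± 0.72 (edgeR adjusted p = 0.753), or -0.36 without wild-type day 14 library 3. The antisense gene Gm15655 overlaps the locus, and no source used here gives the strand setting of the counting.

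Bhlhe40, on the plus strand of chromosome 6 (chr6:108660629-108666925, ENSMUSG00000030103), encodes the repressor that holds down Il10 in T helper cells and is also an output of the circadian clock. It had 158, 264 and 231 CPM in knockout libraries of day 14, against 115, 155 and 221 CPM in wild type. On day 7 the knockout libraries had 96.9, 61.3, 46.5 and 145 CPM, against 40.9, 50.01, 58.6 and 58.6 CPM in wild type. The genotypes overlapped on both days, and both groups of day 14 stood above their own group of day 7. Bhlhe40 rose with time in knockout cells by 1.32 ± 0.34 (edgeR adjusted p = 0.0174) and in wild-type cells by 1.66 ± 0.34 (adjusted p = 0.00351), with an interaction of -0.34 ± 0.49 (95% interval -1.38 to 0.70, adjusted p = 0.990). The call in knockout cells was lost without day 7 library 2 (edgeR adjusted p = 0.0549), day 14 library 2 (0.0780) or day 14 library 3 (0.0627). Day and lane set cannot be told apart within that genotype. With a term for the lane set over all libraries the difference was 1.50 (adjusted p = 0.144). Between genotypes the log2 difference was 0.41 ± 0.37 at day 14 and 0.75 ± 0.32 at day 7 (edgeR adjusted p = 0.535 and 0.186), the first of which was 0.68 without wild-type day 14 library 3 (adjusted p = 0.225) and the second 0.41 without knockout day 7 library 4 (adjusted p = 0.579).

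Bhlhe41, the paralog on the minus strand of the same chromosome (chr6:145858243-145865558, ENSMUSG00000030256), was close to the detection limit. It had 9, 5 and 6 reads in knockout libraries of day 14, against 5, 21 and 9 reads in wild type. The knockout libraries of day 7 had 12, 7, 9 and 10 reads, against 5, 13, 4 and 8 reads in wild type. All 4 groups overlapped, and no difference was detectable at this depth. The log2 difference between genotypes was -0.92 ± 0.63 at day 14 and 0.52 ± 0.55 at day 7 (edgeR adjusted p = 0.407 and 0.582), and between the days it was -0.82 ± 0.60 in knockout and 0.62 ± 0.58 in wild-type cells (edgeR adjusted p = 0.438 and 0.50). The interaction was -1.44 ± 0.84 (edgeR adjusted p = 0.771). Without wild-type day 14 library 2, the one with 21 reads, the genotype difference at day 14 was -0.19, the difference between the days in wild-type cells -0.11 and the interaction -0.71.

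Pparg, on the plus strand of chromosome 6 (chr6:115360951-115490399, ENSMUSG00000000440), encodes the fatty acid receptor PPAR gamma, which acts as a dimer with retinoid X receptors. It had 72.1, 48.5 and 56.6 CPM in knockout libraries of day 14, against 46.9, 58.7 and 135 CPM in wild type. On day 7 the knockout libraries had 35.6, 43.3, 40.7 and 29.0 CPM, against 18.9, 26.4, 32.3 and 38.8 CPM in wild type. The genotypes overlapped on both days, and each genotype's day 14 libraries stood above its day 7 libraries. The rise in wild-type cells was 1.46 ± 0.34 (edgeR adjusted p = 0.00690), or 0.86 without wild-type day 14 library 3 (adjusted p = 0.0295), and knockout cells had a log2 difference of 0.67 ± 0.34 (adjusted p = 0.223). The difference between these changes was -0.79 ± 0.48 (edgeR adjusted p = 0.794), or -0.19 without that library. Between genotypes Pparg differed by -0.44 ± 0.36 at day 14, which turned to 0.16 without that library, and by 0.35 ± 0.31 at day 7 (edgeR adjusted p = 0.497 and 0.508).

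**Figure D3:**
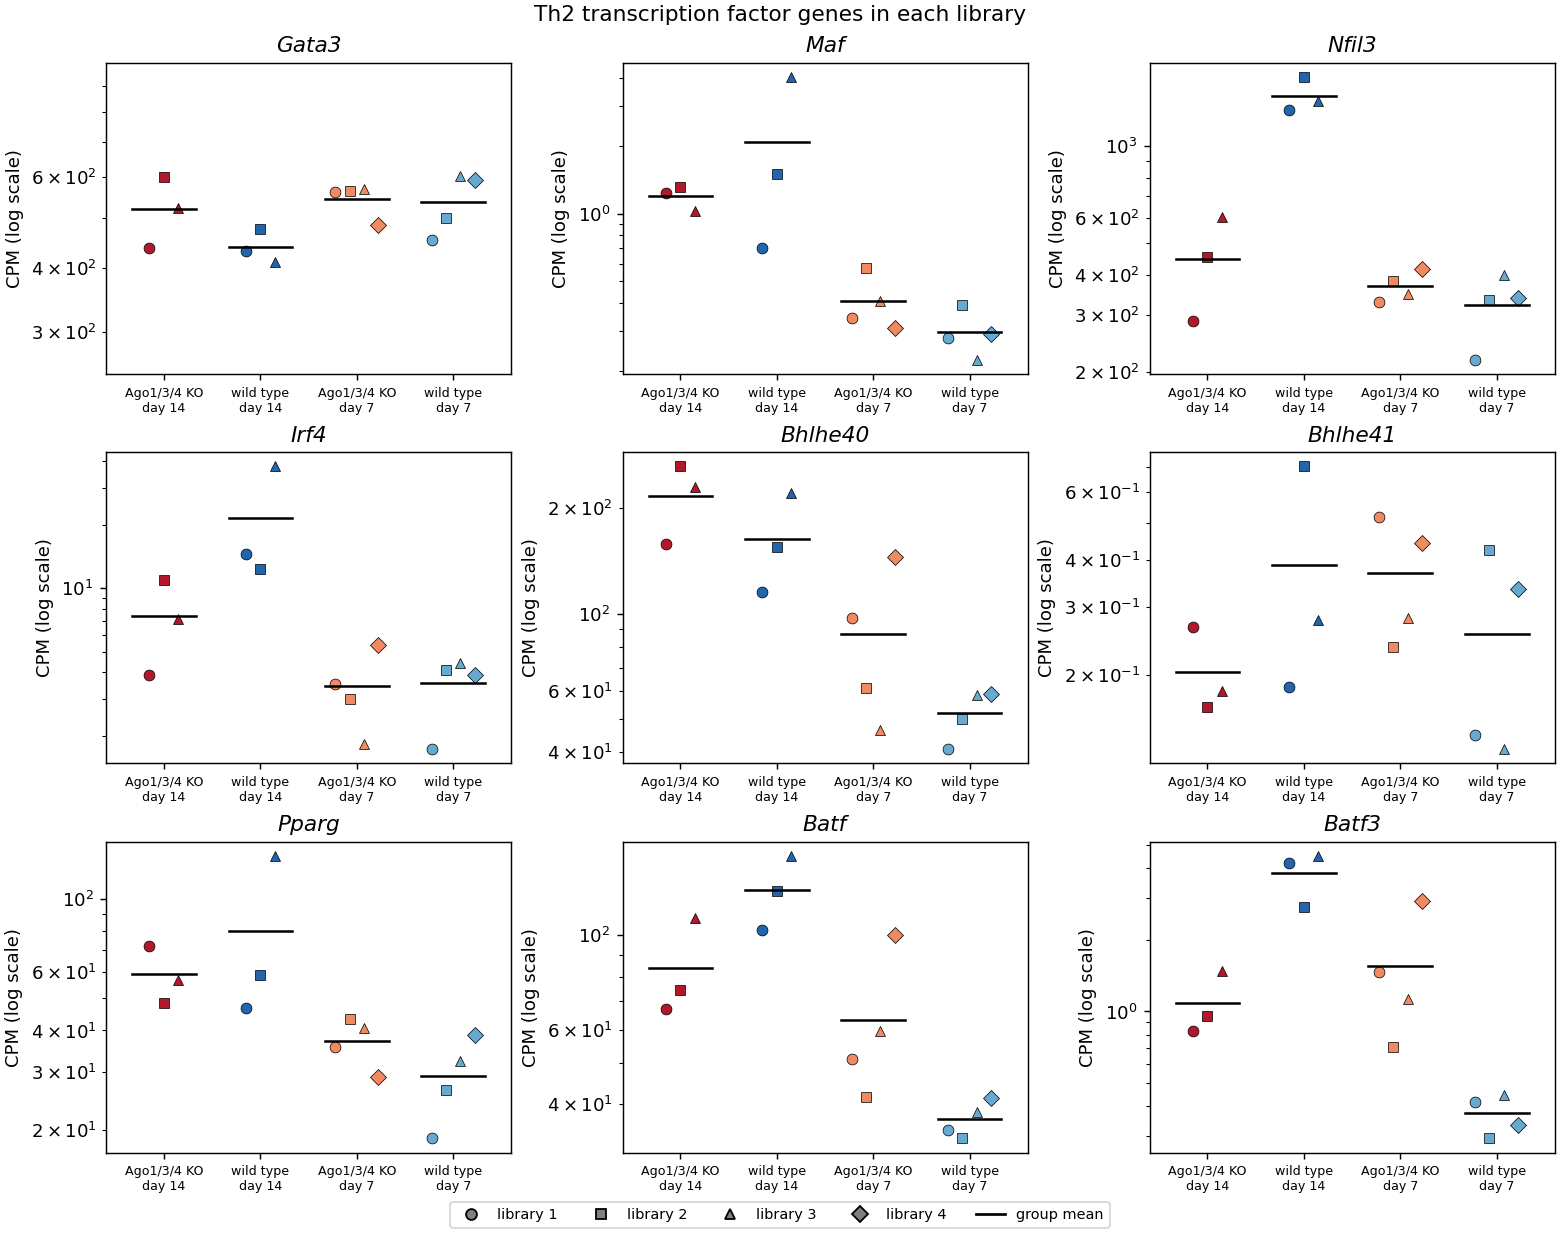
CPM of each gene in every library, by group, with a bar at the group mean and 1 marker shape per library number. Nfil3 in wild-type day 14 cells, at 1289.8 to 1635 CPM, is apart from the 3 other groups, and Batf3 is lower in knockout cells at day 14 and higher at day 7.

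Wild-type day 14 library 3 had the highest value of its group in 6 of the 9 genes (Maf, Irf4, Bhlhe40, Pparg, Batf and Batf3), and knockout day 7 library 4 in 5 (Nfil3, Irf4, Bhlhe40, Batf and Batf3). All 7 genes called between the days in wild-type cells were called without each library in turn. The rises were also seen within each lane set. In the set that held wild-type day 14 library 2 and day 7 libraries 2 to 4, the log2 ratio of mean CPM ran from 0.85 for Pparg to 2.94 for Batf3 over these 7 genes. In the set with day 14 libraries 1 and 3 and day 7 library 1, it ran from 1.88 for Batf to 3.92 for Irf4. The set that held all knockout libraries of day 7 and wild-type libraries 2 to 4 gave log2 ratios of 0.74 for Batf and 2.12 for Batf3, in the direction of the whole group.

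Ratios of 2 genes within a library do not depend on how libraries are scaled. The log2 ratio of Nfil3 to Gata3 reads averaged -0.27 ± 0.42 in knockout and 1.70 ± 0.11 in wild-type cells at day 14 (SD, n = 3 each), without overlap. The difference was -1.97 by an exact permutation test with p = 0.1, the smallest that 3 against 3 libraries allow. At day 7 the same ratio differed by 0.20 (exact permutation p = 0.314). Nfil3 thus had more reads than Gata3 in all wild-type libraries of day 14 and in knockout day 14 library 3, and fewer in the other 10 libraries. Batf3 to Batf averaged -6.26 ± 0.06 in knockout and -5.07 ± 0.46 in wild-type cells at day 14 (exact permutation p = 0.1, the smallest possible). At day 7 it averaged -5.43 ± 0.39 in knockout and -6.58 ± 0.27 in wild-type cells (SD, n = 4 each), a difference of 1.15 with an exact permutation p of 0.0286, the smallest possible. The ratio of Batf3 to its paralog was thus lower in knockout cells at day 14 and higher at day 7, with no overlap between genotypes on either day. Bhlhe41 to Bhlhe40 differed by -2.20 between day 14 and day 7 in knockout cells without overlap (exact permutation p = 0.0571, the smallest possible) and by -1.09 in wild-type cells with overlap (p = 0.171 by the exact test). Over the 12 such two-sided tests no Benjamini-Hochberg adjusted p was below 0.137.

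**Figure D4:**
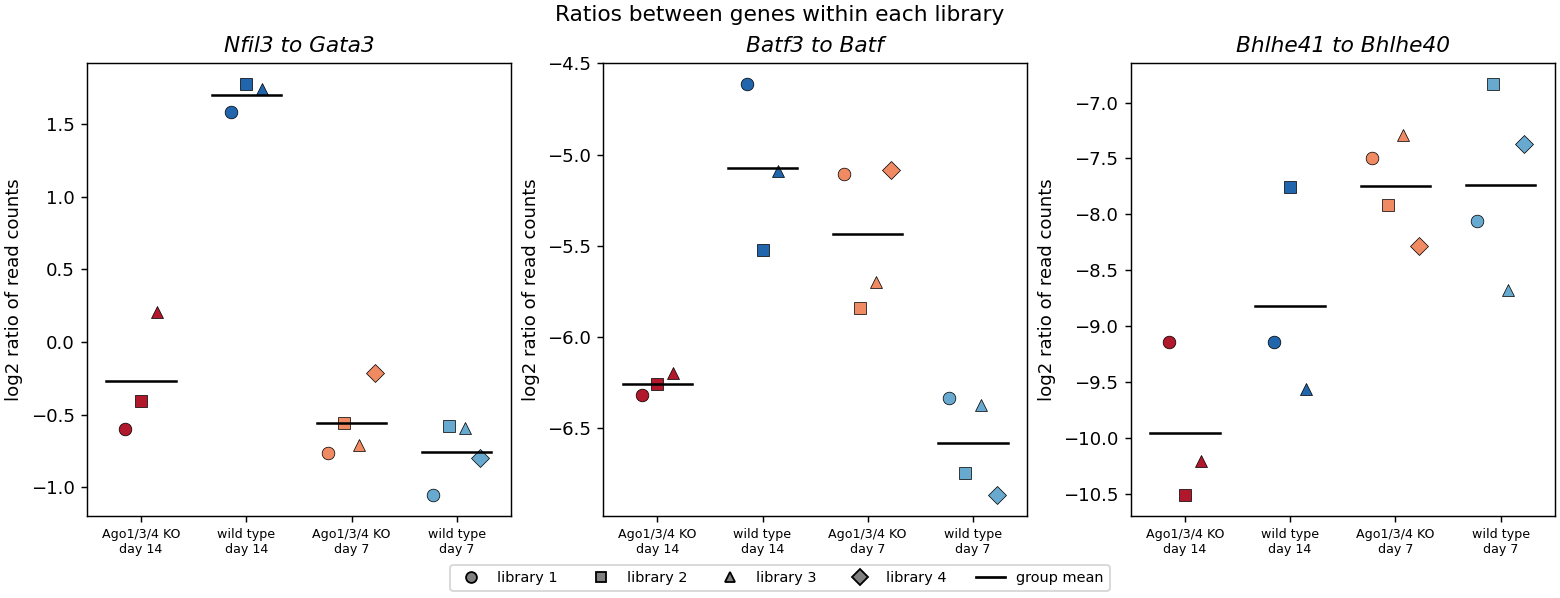
Log2 ratios of read counts of 3 gene pairs within each library, by group, with a bar at the group mean. Nfil3 to Gata3 lies at 1.70 in wild-type day 14 cells and at -0.27 in knockout cells, and Batf3 to Batf changes sides between day 14 and day 7.

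The genes whose log2 CPM lay closest to each factor over the 14 libraries, by the root-mean-square difference after centring, are given as a description. Gata3 had the smallest movement of its own, with a root-mean-square of 0.184 after centring. For Nfil3 the closest genes were Ggt7 at 0.310, Slc27a1 at 0.326 and Disc1 at 0.356, against a root-mean-square of 0.873 for Nfil3 itself. Maf was closest to Eps8 (0.343) and Rbpj (0.377), and Bhlhe40 to Mvd (0.238), a gene of sterol synthesis. Pparg was closest to Ppt1 (0.317) and to Insig1 (0.329), which encodes a sensor of sterols, and Batf to Sdf4 (0.236) and Susd3 (0.238). Batf3, whose own root-mean-square was 1.19, had no gene nearer than Bspry at 0.485, and Irf4, at 1.17, none nearer than Tns2 at 0.456. Of the other 8 factors, Batf was the closest to Nfil3 (0.509) and to Batf3 (0.614).

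Around these factors, other regulators linked to Th2 cells numbered 28, all of them tested. At day 14, 2 were called lower in knockout cells and none higher, where 1.42% of all tested genes were called and 0.578% were called lower. Both were signal transducers of interleukin 2 and related cytokines. Stat5a averaged 58.9 ± 19.9 CPM in knockout cells, against 142 ± 44.3 CPM in wild type (log2 difference -1.27 ± 0.28, edgeR adjusted p = 0.0398), and Stat5b 214 ± 35.3 CPM in knockout cells, against 426 ± 132 CPM in wild type (-0.99 ± 0.23, adjusted p = 0.0447). The median log2 difference of the 28 was -0.58 at day 14 and -0.42 at day 7, against 0.01 and -0.01 over all genes. At day 7 edgeR called 0 of them, with 14 at an unadjusted p below 0.05, while DESeq2 called 2 and limma-voom 18. At day 14 edgeR gave 12 of them an unadjusted p below 0.05, while DESeq2 called 6 and limma-voom 12. Over all genes these shares were 23.4% at an unadjusted p, 4.04% by DESeq2 and 43.5% by limma-voom at day 7, and 21.7%, 8.57% and 16.7% at day 14, and the counts of the other lists stand beside the same shares. Stat6, which carries the interleukin 4 signal and was picked after its value was seen, had a difference of -0.80 ± 0.29 at day 14 that did not pass (edgeR adjusted p = 0.147). Between day 14 and day 7, 3 rose and 6 fell in knockout cells and 7 rose and 7 fell in wild-type cells. Over all tested genes edgeR called 15.5% between the days in knockout cells (10.5% higher) and 20.5% in wild-type cells (13.2% higher). The counts over time of the other lists stand beside these shares too. Rbpj, the Notch effector, rose by 2.49 ± 0.38 in wild-type cells, and Nfkb1, a subunit of NF-kB, by 1.52 in knockout cells. Runx1, a factor of T cell development, fell by 1.396 in knockout cells. Ets1 fell by 1.11 in knockout and by 1.30 in wild-type cells, and Kmt2a, a histone methyltransferase, by 1.11 in knockout and by 1.36 in wild-type cells.

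Of 15 tested regulators that oppose the Th2 programme, 1 was called higher in knockout cells at day 14, Id3, an inhibitor of E proteins. It averaged 9.97 ± 0.226 CPM in knockout cells, against 3.66 ± 0.794 CPM in wild type (log2 difference 1.45 ± 0.26, edgeR adjusted p = 0.0156). Beside this 1 call at day 14 (1.42% of all tested genes were called), edgeR gave 4 an unadjusted p below 0.05, DESeq2 called 2 and limma-voom 5. At day 7 edgeR called 0 of them (4 at an unadjusted p below 0.05, 2 by DESeq2, 8 by limma-voom), and Id3 differed by -0.04 ± 0.22. With time 2 rose and 4 fell in knockout cells and 2 rose and 3 fell in wild-type cells. Those that rose are known from Th1 cells, Eomes (4.05 ± 0.47 in knockout, 2.74 ± 0.44 in wild type) and Hlx (2.67 ± 0.54 in knockout, 4.17 ± 0.51 in wild type). Foxo1, a keeper of quiescence, fell by 1.19 in knockout and by 1.90 in wild-type cells, and Id3 by 1.21 in knockout and by 2.70 in wild-type cells.

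Family members and partners of the 9 factors numbered 31, of which 21 passed the filter. Between genotypes edgeR called 0 on either day, with 6 at an unadjusted p below 0.05 on each. DESeq2 called 1 on each day, and limma-voom 5 at day 14 and 7 at day 7. With time 3 rose and 1 fell in knockout cells, and 7 rose in wild-type cells. Jun, a partner of BATF, rose by 1.32 ± 0.32 in knockout (edgeR adjusted p = 0.0124) and by 2.78 ± 0.33 in wild-type cells (adjusted p = 6.65e-05), with 48.1 CPM at day 14 in knockout and 85.7 in wild-type cells. Gata1, the blood-lineage relative of Gata3, rose by 2.21 ± 0.23 in knockout and 1.36 ± 0.23 in wild-type cells, and Irf8 by 2.83 ± 0.37 in knockout and 2.37 ± 0.36 in wild-type cells. Maff, a small MAF protein gene, rose by 1.97 in wild-type cells, and Irf2 fell by 0.65 in knockout cells. At day 14 Gata1 averaged 83.5 ± 26.5 CPM without the Ago genes and 47.1 ± 6.80 CPM in wild type, a difference that did not pass (edgeR adjusted p = 0.0906).

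Th2 effector genes, the cytokines and receptors that these factors act on, had 15 of 19 members tested, and 10 of them rose with time in each genotype. Over all tested genes 10.5% were called higher with time in knockout and 13.2% in wild-type cells. Il10 rose by 4.40 ± 0.71 in knockout (edgeR adjusted p = 0.000901) and by 6.48 ± 0.75 in wild-type cells (adjusted p = 5.63e-05). In knockout cells Il1rl1, the receptor for interleukin 33, rose by 3.00 ± 0.63 and the cytokine gene Csf2 by 2.85 ± 0.64. Il24, a cytokine gene of the Il10 family, averaged 10.3 ± 11.4 CPM in knockout cells of day 14, against 0.0433 ± 0.0609 CPM at day 7 (edgeR adjusted p = 0.00514). In wild-type cells it averaged 18.9 ± 24.98 CPM at day 14 and was listed at 0 reads at day 7 (edgeR adjusted p = 0.00141). Il5, the cytokine gene for eosinophils, averaged 5.06 ± 4.24 CPM in wild-type cells of day 14 and had 0 reads at day 7 as well (edgeR adjusted p = 0.000607). Ccr8, a chemokine receptor of Th2 cells, rose by 3.23 ± 0.80 in knockout and 4.68 ± 0.85 in wild-type cells. At day 14, 1 was called between genotypes, Il4ra, the receptor chain for interleukin 4, lower by 1.46 on the log2 scale in knockout cells at day 14 (SE 0.32, edgeR adjusted p = 0.0369). Beside this 1 call at day 14 (1.42% of all tested genes were called), edgeR gave 4 an unadjusted p below 0.05, DESeq2 called 1 and limma-voom 4. At day 7 edgeR called 0 (4 at an unadjusted p below 0.05, 1 by DESeq2, 4 by limma-voom). The interaction called 0 genes by edgeR in each of the 6 lists, with 1 to 6 per list at an unadjusted p below 0.05 (7.97% of all genes), at most 1 by DESeq2 and at most 2 by limma-voom.

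Among 10 tested PPAR target genes edgeR called 0 between genotypes, with 4 at day 14 and 3 at day 7 at an unadjusted p below 0.05. DESeq2 called 1 at day 14 and 2 at day 7, and limma-voom 2 at day 14 and 5 at day 7. Fabp5, a fatty acid carrier, rose with time by 2.36 ± 0.41 in knockout and 2.54 ± 0.41 in wild-type cells, and Plin2, the lipid droplet coat gene, by 2.96 ± 0.33 in wild-type cells, beside 0.85 ± 0.32 in knockout cells, which did not pass (edgeR adjusted p = 0.0882). Ucp2, a mitochondrial carrier, rose by 0.84 in wild-type cells. Adipoq, the fat cell hormone, fell in both, and its level was 2.17 CPM in knockout cells of day 7, against 1.90 CPM in wild type. Of 15 tested clock genes edgeR called 0 between genotypes, with 3 at day 14 and 5 at day 7 at an unadjusted p below 0.05 (by DESeq2 1 at day 14 and 0 at day 7, by limma-voom 1 at day 14 and 7 at day 7). With time Ciart fell by 0.76 in knockout cells, and 3 genes fell in wild-type cells, Npas2 by 1.61, Cry1 by 0.69 and Ciart by 0.69.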

How the data were processed

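Read counts per gene and RPKM were deposited by the authors, 1 table per library, with a gene width per row (multiples of 3 in 86.7% of genes, so a coding length). The submitters' processing notes name the aligner GSNAP and the build GRCm38, while no source used here gives the counting tool or its strand setting. Counts were tested as deposited with edgeR 4.0.16 (R 4.3.3): filterByExpr, TMM scaling, 1 mean per group over 14 libraries, robust quasi-likelihood F-tests and Benjamini-Hochberg adjustment over 11591 genes, with calls at an adjusted p below 0.05. CPM use the TMM-scaled totals; the deposited RPKM are used where genes are set beside each other. Libraries held 23326248 to 35803197 counts, and values cover counting error and library spread only. Libraries of the same group differed by more than sampling noise in every pair. Ratios took a pseudocount of 0.5 reads and a two-sided exact permutation test. Symbols matched 22457 of 22598 identifiers. The genes, the gene lists and the tests were chosen with earlier results of these data known. All 9 genes are named in each comparison, and from each list, in each comparison, the 4 called genes with the smallest adjusted p, or all where fewer were called; likeness is over 3 genes per factor. Lane sets come from the lane numbers in the tables' names, which run from 1 to 8 and then start again. The labels do not say whether replicate numbers pair the libraries. Correlations of same-numbered deviations ranged from -0.46 to 0.42, a spread that cannot decide it. Alternatives were other scalings and filters, DESeq2 1.42.0, limma 3.58.1 voom with sample weights, a replicate block, a lane set term, a GC and coding length offset (coding sequence for 99.6% of tested genes), fits of the compared libraries alone, and leaving out each library.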

Additional observations from a re-analysis of the deposited data

Results flagged for a closer look

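Gata3 in knockout day 7 library 4 was at 484 CPM, below the 561, 564 and 568 CPM of its group mates. Its gap to the nearest, divided by the range of the group, was larger than Dixon's critical value of 0.829 for 4 libraries. Chance flags about 1 in 20 groups, and 24 groups were examined. The same library had the highest values of its group for Nfil3, Irf4, Bhlhe40, Batf and Batf3.

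The genotype difference of Batf3 changed between the days by -3.84 on the log2 scale, the value of the interaction term, with knockout libraries all below wild type at day 14 and all above it at day 7.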

How the results depend on the processing

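The count of 7 genes called between the days in wild-type cells was 7 or 8 under every alternative run; the 8th, under the GC and length offset with or without the replicate block, was Gata3. Counts elsewhere were small and moved. For knockout over wild type at day 7 (0 called), DESeq2 gave 1 and limma-voom 3, where limma-voom called 5045 of 11591 genes. At day 14 (1 called), the count was 0 with the compared libraries alone, 3 with DESeq2, 2 with limma-voom, 2 with the GC and length offset, 3 with that offset and the block, and 1 to 2 without single libraries; without wild-type library 3, all calls at day 14 numbered 2640, beside 165 with it. For day 14 over day 7 in knockout cells (1 called), it was 2 with the compared libraries alone, 2 with DESeq2, 3 with limma-voom, 0 with the lane set term and 0 to 2 without single libraries. For the interaction (1 called), it was 2 with upper-quartile scaling, total counts, no filter, DESeq2, limma-voom and the offset with or without the block, 0 with the lane set term, and 0 to 2 without single libraries. The cause of these changes was not tested.

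With the replicate block alone the counts were 0 at day 7, 1 at day 14, 1 in knockout and 7 in wild-type cells over time, and 1 for the interaction, which was then Nfil3 (adjusted p = 0.0407) in place of Batf3 (0.0571). The labels do not say that the numbers pair the libraries, so the block is a check only.

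Directions that turned all belonged to values that were not called. Gata3 at day 7 was -0.036 with the lane set term and -0.052 to 0.094 without single libraries. Irf4 at day 7 was 0.062 with upper-quartile scaling, 0.022 with the block and -0.33 to 0.17 without single libraries. At day 14, Maf was 0.21 and Pparg 0.061 with limma-voom, and without single libraries Maf was -1.22 to 0.11 and Pparg -0.71 to 0.16. In knockout cells over time, Gata3 was 0.18 and Bhlhe41 0.51 with the lane set term, and Gata3 was -0.18 to 0.041 without single libraries. Bhlhe41 in wild-type cells over time was -0.11 to 0.99 without single libraries, the Bhlhe40 interaction was 0.60 with limma-voom, and the Bhlhe41 to Bhlhe40 ratio at day 7 was -0.33 to 0.29 without single libraries. Upper-quartile scaling moved the median of all genes by 0.11 at day 7, by 0.11 over time in wild-type cells and by -0.11 in the interaction.

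Groups of 3 and 4 libraries limit every test, and Bhlhe41, Maf and Batf3 rest on few reads.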
